A study of Mus musculus with 6 samples.

Results

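The genes described here are 9 members of the growth hormone and insulin-like growth factor (IGF) axis in mouse liver: Igf1, Igfals, Igfbp1, Igfbp2, Igfbp3, Igfbp4, Ghr, Igf1r and Socs2. They were chosen by symbol, and the level of each gene is the sum over its transcripts in TPM, a unit of transcript abundance that is corrected for transcript length and adds up to the same total in every mouse. They are 9 of the 35540 genes in the table, and all 9 were among the 14189 genes tested, those averaging 0.1 TPM or more over the 6 mice.

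RNA sequencing compared livers of 3 Surf4 fl/fl Alb-Cre+ mice with livers of 3 Surf4 fl/fl Alb-Cre- controls, 1 library per mouse. Surf4 encodes a cargo receptor that carries secreted proteins out of the endoplasmic reticulum. All 6 mice carried loxP sites around Surf4 exon 2 on a C57BL/6J background, and only the Alb-Cre+ mice carried Cre recombinase, whose albumin promoter is active in hepatocytes, so that other liver cells keep the gene. The 2 males of a genotype were numbered 1 and 3 and the female 2, so sex cannot be told apart from replicate number 2. The labels describe housing with food always present, while the methods describe an overnight fast before samples were taken, and which of these held for the livers, and the age of the mice, are not given in the sources used here.

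Growth hormone from the pituitary binds its receptor on hepatocytes and acts through the kinase JAK2 and the transcription factor STAT5B, which turn on Igf1, Igfals and the feedback inhibitor Socs2. The liver secretes most of the IGF-I in blood, where it travels mainly in a ternary complex with IGFBP3 and the acid-labile subunit that Igfals encodes, while smaller complexes form with other binding proteins. Igfbp1 is known as the binding protein that fasting raises and insulin represses, and the pattern of growth hormone pulses differs between male and female mice, which sets many sex-biased liver genes.

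Surf4 itself measured 59.0, 71.8 and 54.3 TPM in Alb-Cre+ replicates 1, 2 and 3 and 92.5, 94.5 and 92.5 TPM in the controls. The genotypes did not overlap, and the ratio of the means was 0.663 (log2 difference -0.60 ± 0.13 SE), although the exact permutation p of 0.1 is the smallest that 3 mice against 3 can give and the adjusted p in limma was 1.00. The gene sum does not separate message with and without exon 2. The summed TPM of 4 Y-linked genes were 55.1 to 64.6 in the 4 mice labelled male and 0.0908 to 0.101 in the 2 labelled female. All 12 hepatocyte markers were detected, with sums of 72728 to 98823 TPM in Alb-Cre+ and 92348 to 108943 TPM in control livers. TPM keep no read numbers, so library depth and counting error are unknown.

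The members spanned a wide range of levels. By mean TPM over the 6 mice the order was Igfbp2, Igfbp4, Igfbp1, Igf1, Ghr, Igfals, Igfbp3, Socs2 and Igf1r. Igfbp2 was above Igfbp4 in 5 of 6 mice, Igfbp4 above Igfbp1 in 6, Igfbp1 above Igf1 in 5, and Igf1 above Ghr in 6. Igfbp3 and Socs2 could not be ordered, since Igfbp3 was the higher in only 3 of 6 mice. The binding protein genes Igfbp1, Igfbp2 and Igfbp4 thus stood above the gene of the growth factor they bind in 5 or 6 of the 6 livers. These levels sum all transcripts, coding or not. In protein-coding transcripts alone, Igfbp4 was below Igfbp1 in Alb-Cre+ replicate 1 (588 against 632 TPM) and in control replicates 1 and 2. There the values were 552 against 834 and 516 against 683 TPM. It was above Igfbp1 in the other mice. Protein-coding Igfals averaged 8.23 TPM, below Igfbp3 at 14.1 TPM.

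**Figure D1:**
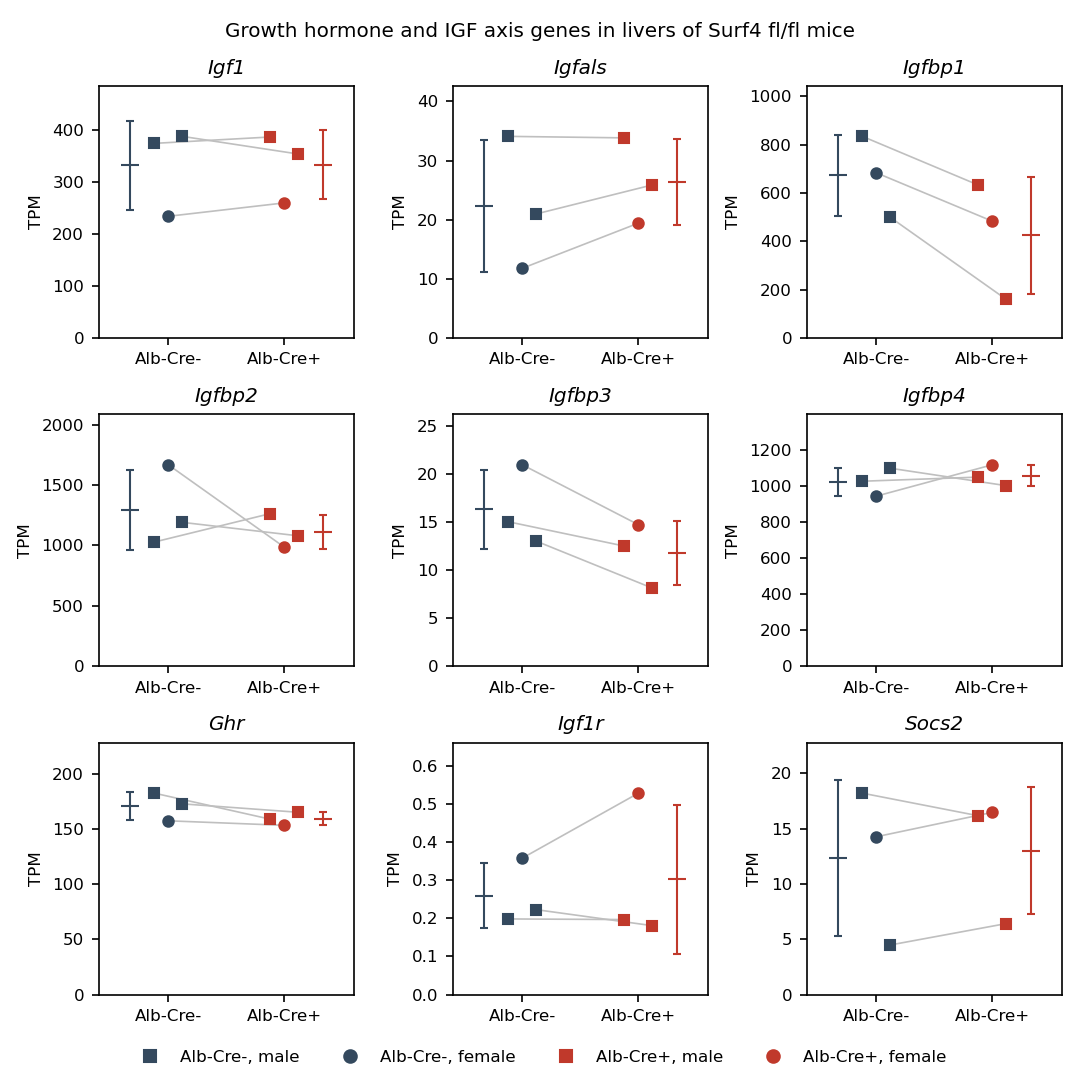
TPM (y axes from 0, a separate scale for each gene) of the 9 members in control (Alb-Cre-, dark) and Alb-Cre+ (red) livers. Squares are males and circles females, grey lines join same-numbered mice, and the bars beside the points give the mean and SD of 3 mice. Igfbp1 and Igfbp3 are lower in the Alb-Cre+ mouse of all 3 pairs, but their genotypes overlap. Igf1 and Igfals are lowest in the females of both genotypes.

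Igf1, on chromosome 10 (chr10:87858265-87937042, plus strand, GRCm38), encodes the hormone itself. It measured 386, 259.7 and 354 TPM in Alb-Cre+ replicates 1 to 3 and 374, 234 and 388 TPM in the controls. The female was lowest in each genotype, and the genotypes overlapped almost entirely. The means were 333 ± 65.8 and 332 ± 85.2 TPM (SD, n = 3 per genotype), and the log2 difference was 0.02 ± 0.24 (SE), with a 95% confidence interval from -0.55 to 0.59. Comparing same-numbered mice, by fitting the replicate number as a block, narrowed that interval to -0.23 to 0.27.

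Igfals (chr17:24865997-24882010, plus strand) encodes the acid-labile subunit, which lengthens the stay of IGF-I in blood. Its levels were 33.8, 19.4 and 25.9 TPM in Alb-Cre+ livers and 34.1, 11.8 and 20.96 TPM in controls. The genotypes overlapped, with replicate 1 highest and the female lowest in both. The log2 difference was 0.34 ± 0.39, and 0.34 ± 0.16 with the replicate block (interval -0.07 to 0.74, adjusted limma p 0.999). It came mostly from the female pair, at 0.72, against -0.01 and 0.30 in the pairs of males.

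The 4 binding protein genes sit at 3 places. Igfbp1 (chr11:7197782-7202546, plus strand) and Igfbp3 (chr11:7206086-7213923, minus strand) are neighbours that face each other tail to tail, 3539 bases apart. Igfbp4 lies elsewhere on the same chromosome (chr11:99041244-99054392, plus strand), and Igfbp2 on chromosome 1 (chr1:72824503-72852474, plus strand).

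Igfbp1 showed the widest genotype difference of the 9 members. It measured 632, 483 and 159 TPM in Alb-Cre+ livers and 834, 683 and 499 TPM in controls. Alb-Cre+ replicate 3 stood far below the other 5 mice, while Alb-Cre+ replicate 1 lay within the range of the controls. The means were 425 ± 242 and 672 ± 168 TPM, a ratio of 0.632. The log2 difference was -0.85 ± 0.50, with an interval from -2.02 to 0.32. Each Alb-Cre+ mouse was below its same-numbered control, by ratios of 0.758, 0.707 and 0.319. With the replicate block the interval was -1.50 to -0.20, and the unadjusted limma p fell from 0.131 to 0.0198, but the p adjusted over all genes by the Benjamini-Hochberg method was 0.914. Alb-Cre+ replicate 3 carried most of the size: without it the log2 difference was -0.25.

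Igfbp3, whose product forms the ternary complex with IGF-I, is known in rodent liver mainly from non-parenchymal cells. It measured 12.5, 14.8 and 8.15 TPM in Alb-Cre+ livers and 15.1, 21.004 and 13.0 TPM in controls. The genotypes overlapped, because the Alb-Cre+ female was above a control male, yet the Alb-Cre+ mouse was the lower in each pair, by ratios of 0.832, 0.703 and 0.625. The log2 difference was -0.48 ± 0.27, with an interval from -1.13 to 0.16. With the block it ran from -0.81 to -0.15 (unadjusted limma p 0.0122, adjusted p 0.806), and with sex as a covariate the unadjusted p was 0.0363. The difference was -0.24 without Alb-Cre+ replicate 3 and -0.29 without control replicate 2. Sinusoidal endothelial markers (12 of 12 tested) summed to 133 to 287 TPM in Alb-Cre+ and 161 to 267 TPM in control livers, and 0 of them had an unadjusted p under 0.05 for genotype, with or without the block. In bulk tissue, fewer cells of a type and less RNA per cell cannot be told apart.

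Igfbp2, a binding protein made mainly in the liver, was the most abundant member on average. It measured 1264, 986 and 1079.8 TPM in Alb-Cre+ livers and 1029, 1668 and 1191 TPM in controls. The control female stood above all other mice, and the remaining 5 lay close together. The log2 difference was -0.20 ± 0.21 (interval -0.70 to 0.30), and it was -0.0040 without control replicate 2, the control female, and -0.35 without control replicate 1. The female pair differed by -0.76 and the pairs of males by 0.30 and -0.14. The genotype difference in females minus that in males was -0.84, which rests on 1 female per genotype. A test of whether the genotype difference depended on sex gave an adjusted limma p of 0.775.

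Igfbp4, an inhibitory binding protein, had the smallest standard error of the binding protein genes among the members. It measured 1049.8, 1118 and 1002 TPM in Alb-Cre+ livers and 1027, 944 and 1099 TPM in controls. Its log2 difference of 0.05 ± 0.13 had an interval from -0.27 to 0.36, and the genotypes overlapped.

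Ghr (chr15:3317760-3583492, minus strand) encodes the growth hormone receptor. It measured 159, 153 and 165 TPM in Alb-Cre+ livers and 183, 158 and 173 TPM in controls. The Alb-Cre+ mouse was the lower in each pair, but by ratios of only 0.871, 0.974 and 0.956, and the genotypes overlapped. The log2 difference was -0.10 ± 0.11, and its interval, from -0.36 to 0.16, was the narrowest of the members.

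Igf1r (chr7:67952827-68233668, plus strand) encodes the receptor for IGF-I, which hepatocytes are known to express at low levels. It measured 0.197, 0.528 and 0.181 TPM in Alb-Cre+ livers and 0.198, 0.358 and 0.223 TPM in controls. Both females were above all 4 males, whereas the genotypes overlapped, and the log2 difference was 0.08 ± 0.43. At these levels the 0.1 TPM added before taking logs shrinks every difference.

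Socs2 (chr10:95385362-95417180, minus strand) encodes an inhibitor that growth hormone induces and that shuts its receptor's signal down. It measured 16.2, 16.5 and 6.42 TPM in Alb-Cre+ livers and 18.2, 14.3 and 4.48 TPM in controls. Replicate 3 was low in both genotypes, so that the spread lay between replicate numbers rather than between genotypes. The log2 difference of 0.18 had a standard error of 0.58 over all 6 mice and of 0.16 with the replicate block, the largest change of precision among the members.

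**Figure D2:**
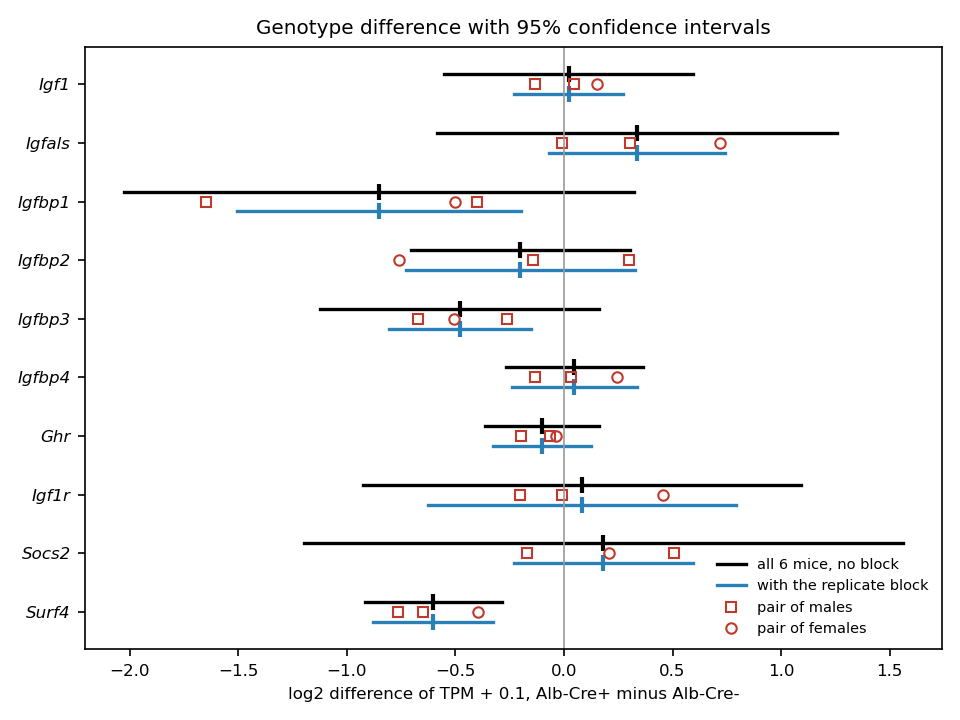
Log2 difference of TPM + 0.1 (x axis, Alb-Cre+ minus Alb-Cre-) for the 9 members and Surf4. Ticks with lines are the limma estimate and its 95% confidence interval, in black without and in blue with the replicate block, and open symbols are the differences within each pair of same-numbered mice (squares males, circles females). Without the block the intervals of all 9 members include 0, and with it those of Igfbp1 and Igfbp3 do not.

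No member was called for genotype. At an adjusted p under 0.01 limma called 0 of the 9 members and 0 of the 14189 genes (0%), and with the replicate block again 0 of 9 and 0% of all genes. The targeted gene Surf4 was not called either, so the lack of calls does not show that no gene changed. The paper's own count test reported genes in both directions at a false discovery rate under 0.01, with Derl3 the most significant upward. At an unadjusted p under 0.05 the members numbered 0 without the block, where 1.76% of all genes passed, and 2 with it, Igfbp1 and Igfbp3, where 4.69% of all genes passed. In 0 of 9 members the genotypes did not overlap, against 4.9% of all genes. In 3 of 9, Igfbp1, Igfbp3 and Ghr, the Alb-Cre+ mouse differed from its same-numbered control in the same direction in all 3 pairs, against 23.9% of all genes. The block therefore decides only which members pass unadjusted, and after adjustment over all genes none passed with either fit.

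The balance between binding proteins and hormone was set out per mouse. Igfbp1 made up 21.4%, 18.6% and 7.07% of the summed Igfbp1 to Igfbp4 TPM in Alb-Cre+ livers and 28.7%, 20.6% and 17.8% in controls. The Alb-Cre+ mouse had the smaller Igfbp1 share in each pair, but the genotypes overlapped (two-sided exact permutation p 0.5). The difference of the means, -6.71 percentage points, was -2.41 without Alb-Cre+ replicate 3 and -3.54 without control replicate 1. Igfbp2 and Igfbp4 supplied nearly all of the rest, while Igfbp3 was at most 0.633%. The sum counts all transcripts, and for Igfbp4 only 53.6% to 56.0% of its TPM lay in protein-coding ones. The 4 genes together gave 2959, 2602 and 2249 TPM in Alb-Cre+ livers and 2905, 3317 and 2803 TPM in controls. Over 12 such shares and ratios, 0 separated the genotypes, and the smallest exact p was 0.2 (0.655 after Benjamini-Hochberg adjustment over the 12), in a test that does not use the pairs. In 7 of the 12, several of which share genes, the Alb-Cre+ mouse differed in the same direction in all 3 pairs: the Igfbp1 share (over Igfbp1 to Igfbp4 or to Igfbp7), the Igfbp3 share, Igfbp3 per Igf1 and the sum per Igf1 were lower, and the Igfbp4 share and Igf1 per Igfbp1 higher.

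In 2 ratios to Igf1 the sexes did not overlap, which was also so for the levels of 41.6% of all genes. The summed binding protein TPM per Igf1 TPM were 10.02 and 14.2 in the Alb-Cre+ and control female, and 6.36 to 7.76 in the 4 males. Igfbp3 per 100 Igf1 TPM was 5.68 and 8.98 in the females and 2.30 to 4.02 in the males. Igf1 per Igfbp1 TPM overlapped between the sexes, at 0.538 and 0.342 in the females and 0.449 to 2.23 in the males. Igfals per 100 Igf1 TPM, the gene of the other protein of the ternary complex, overlapped between sexes, at 8.75, 7.47 and 7.31 in Alb-Cre+ and 9.11, 5.03 and 5.41 in control mice. That ratio counts all Igfals transcripts, and only 30.1% to 36.5% of Igfals TPM lay in the protein-coding transcript.

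**Figure D3:**
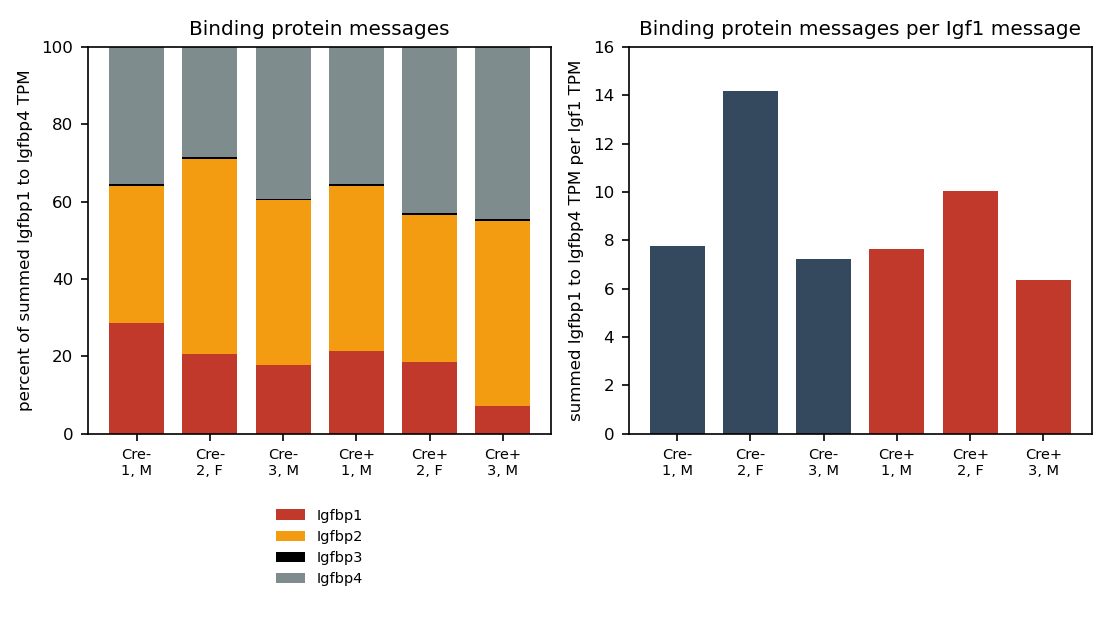
Left, the share of each gene in the summed Igfbp1 to Igfbp4 TPM (percent, stacked to 100) for each mouse. Right, that sum divided by Igf1 TPM (bars from 0, dark for Alb-Cre- and red for Alb-Cre+). Labels give genotype, replicate number and sex (M or F). The Igfbp1 share is smallest in Alb-Cre+ replicate 3, at 7.07%, and the ratio to Igf1 is highest in the female of each genotype, at 10.02 and 14.2.

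Ghr makes 2 kinds of protein. In mice a truncated transcript encodes the soluble growth hormone binding protein, which lacks the membrane-spanning part of the receptor. Both share 811 coding bases of annotated transcripts, after which the truncated form continues for 80 coding bases in an exon of its own, while the full-length form continues in a next exon of 91 bases. These junctions are shown because they distinguish the messages behind the shares given next, with the last 30 shared bases in lower case (chr15:3327974-3328003, minus strand, GRCm38, sequences from the GENCODE M21 transcripts) and the bases that differ in capitals (chr15:3327607-3327686 for the truncated and chr15:3325898-3325988 for the full-length form).
Ghr truncated end: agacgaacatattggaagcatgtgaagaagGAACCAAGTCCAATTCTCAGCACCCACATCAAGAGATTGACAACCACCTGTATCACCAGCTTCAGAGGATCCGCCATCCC
Ghr full-length next exon: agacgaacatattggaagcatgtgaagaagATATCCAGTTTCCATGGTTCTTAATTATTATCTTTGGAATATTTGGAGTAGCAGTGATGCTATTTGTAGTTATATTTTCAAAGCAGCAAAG

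Transcripts with the truncated end carried most of the Ghr TPM in every liver. Their share was 68.2%, 64.9% and 68.7% in Alb-Cre+ mice and 66.4%, 68.5% and 59.5% in controls. The full-length end had 24.7%, 28.1% and 25.2% in Alb-Cre+ mice and 25.9%, 25.1% and 32.2% in controls. Truncated exceeded full-length message in all 6 mice, by ratios from 1.85 to 2.76, and control replicate 3 had the lowest ratio. The genotypes overlapped (exact permutation p 0.6 for the truncated share). The mean truncated share was 67.2% ± 2.07 in Alb-Cre+ and 64.8% ± 4.74 in control mice, a difference that fell below 0, to -0.22 percentage points, when control replicate 3 was left out. TPM of transcripts that share most of their bases are estimates, and their error is not in the deposited values.

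Igf1 transcripts differ in a 52-base exon. Messages without it encode the Ea form of the IGF-I precursor and messages with it the Eb form, which differ in the peptide that is cut from the hormone. The junctions are given to show what separates these messages. In both, the first 30 bases lie at chr10:87913771-87913800 (plus strand, GRCm38, GENCODE M21 transcripts), the capitals mark the alternative exon at chr10:87915298-87915349, and the remaining bases are the coding part of the last exon, which starts at chr10:87930675 and is read in another frame when the alternative exon is present.
Igf1 with exon: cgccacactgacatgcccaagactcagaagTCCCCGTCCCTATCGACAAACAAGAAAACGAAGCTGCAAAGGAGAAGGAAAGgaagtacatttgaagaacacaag
Igf1 without exon: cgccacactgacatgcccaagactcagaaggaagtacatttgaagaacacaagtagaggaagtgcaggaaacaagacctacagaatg

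Transcripts with the complete alternative exon held 36.4%, 35.5% and 38.6% of Igf1 TPM in Alb-Cre+ livers and 40.3%, 39.7% and 40.1% in controls. All 3 Alb-Cre+ mice were below all 3 controls, with means of 36.9% ± 1.61 and 40.0% ± 0.269, and the exact permutation p of 0.1 is the smallest that 3 against 3 can give (0.4 after Benjamini-Hochberg adjustment over the 8 transcript classes of Igf1 and Ghr compared). Transcripts without the exon held 52.1%, 52.4% and 52.6% in Alb-Cre+ and 52.0%, 53.5% and 50.8% in control livers, and their genotypes overlapped. The remainder lay in 2 transcripts whose annotation of the exon is incomplete or extended, with 11.5%, 12.1% and 8.72% in Alb-Cre+ and 7.75%, 6.77% and 9.17% in control livers. In absolute terms the messages with the exon overlapped between genotypes, at 92.2 to 141 TPM in Alb-Cre+ and 92.9 to 155 TPM in control mice. Among all 56 annotated transcripts of the members, the genotypes did not overlap in the shares of 5, of which 4 belong to Igf1 and 1 to Igfals, against 5.19% of all transcripts of the genes tested. The smallest exact permutation p after Benjamini-Hochberg adjustment was 1 over the 56 transcripts and 0.2 over the 8 of Igf1.

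**Figure D4:**
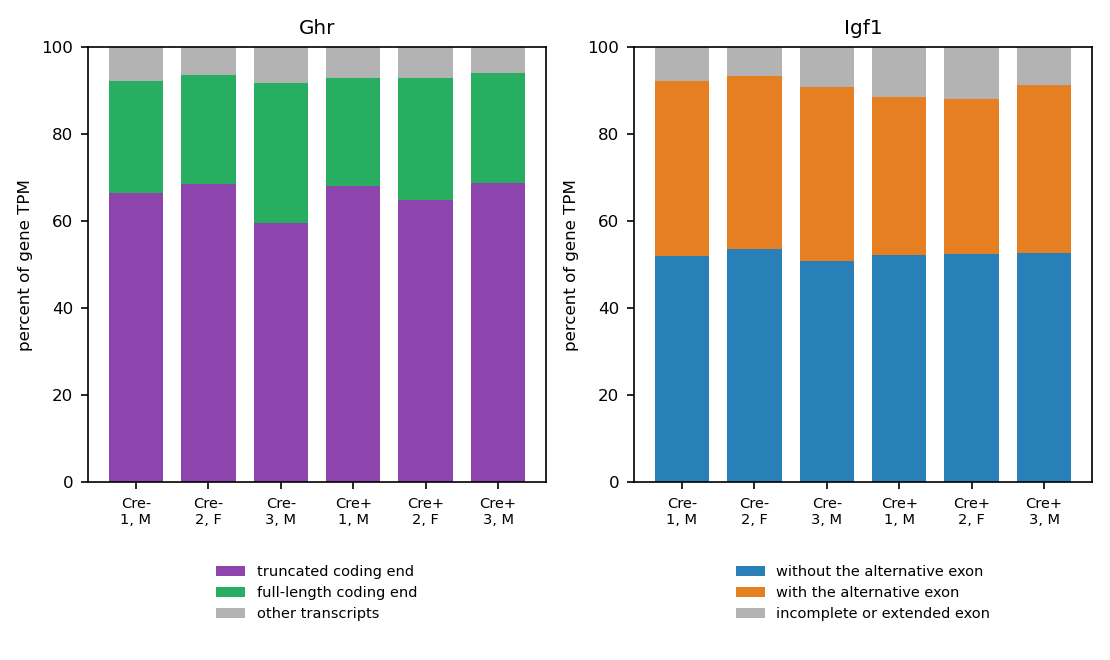
Shares of Ghr TPM (left) and Igf1 TPM (right) in classes of transcripts, as percent of the gene stacked to 100, for each mouse. Labels give genotype, replicate number and sex (M or F). The truncated Ghr end holds 59.5% to 68.7% in every mouse. The Igf1 class with the complete alternative exon is at 35.5% to 38.6% in Alb-Cre+ and 39.7% to 40.3% in control mice. The class without the exon overlaps between genotypes, at 52.1% to 52.6% and 50.8% to 53.5%. So does the class with an incomplete or extended exon, at 8.72% to 12.1% in Alb-Cre+ and 6.77% to 9.17% in control mice.

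Of the other members, Igfbp1 has 1 annotated transcript, and Igfbp2 (99.6%) and Igfbp3 (94.7%) came almost wholly from their leading transcript. Igfals and Igfbp4 did not. The Igfals transcript annotated as protein-coding gave only 34.9%, 36.5% and 30.1% of the gene's TPM in Alb-Cre+ and 34.5%, 35.3% and 32.2% in control livers. The corresponding Igfbp4 share was 53.6% to 56.0%, and nearly all of the rest lay in a short transcript without an annotated coding part. Summing protein-coding transcripts alone left 0 of 9 members with an unadjusted limma p under 0.05 for genotype.

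On the TPM scale Igf1 was the only member with an adjusted p under 0.05 for genotype or sex, and that comparison was between the sexes. In Igf1 the 2 females measured 259.7 and 234 TPM, below all 4 males at 354 to 388 TPM. The log2 difference, female minus male with genotype in the model, was -0.61 ± 0.11 (interval -0.87 to -0.34), and the adjusted limma p was 0.0297. This did not pass the threshold of 0.01 used throughout but did pass 0.05, a second threshold that was added after the data had been seen.

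In Igfals the females, at 19.4 and 11.8 TPM, were also below all males, at 20.96 to 34.1 TPM (log2 difference -0.89 ± 0.25, adjusted p 0.0769). For the protein-coding Igfals transcript alone the sexes overlapped, with 7.09 TPM in the Alb-Cre+ female and 6.75 TPM in the lowest male. Igfbp3 averaged 17.9 TPM in females and 12.2 TPM in males (0.56 ± 0.19, adjusted p 0.124), and the sexes overlapped. Igf1r was higher in both females than in any male, at a ratio of the means of 2.22 (0.84 ± 0.30, adjusted p 0.129). Ghr was slightly lower in both females than in any male (-0.13 ± 0.10, adjusted p 0.434). The remaining members, Igfbp1, Igfbp2, Igfbp4 and Socs2, overlapped between the sexes.

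Counted over the members, 0 of 9 had an adjusted p under 0.01 for sex, against 0.514% of all genes, and 1 of 9 (Igf1) had an adjusted p under 0.05, against 7.18%. At an unadjusted p under 0.05 there were 4 of 9, Igf1, Igfals, Igfbp3 and Igf1r, against 28.7%. The sexes did not overlap in 4 of 9, Igf1, Igfals, Igf1r and Ghr, against 41.6% of all genes, a count near that background.

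TPM are shares of a total, and the median of all genes was higher in females by 0.26 on the log2 scale. Scaling the mice by median-of-ratios size factors brought that median to 0.01, and the genes with an unadjusted p under 0.05 for sex went from 3631 higher and 441 lower in females to 1943 higher and 1886 lower. Against this scale Igf1 was lower in females by a log2 difference of -0.88 (adjusted p 0.0132) and Igfals by -1.16 (adjusted p 0.0293), whereas Igfbp3 was at 0.29 (adjusted p 0.279), Igf1r at 0.63 (adjusted p 0.186) and Ghr at -0.40 (adjusted p 0.0865). Every member but Igfbp2 kept its direction on both scales, and Igfbp2 turned from 0.17 to -0.10.

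**Figure D5:**
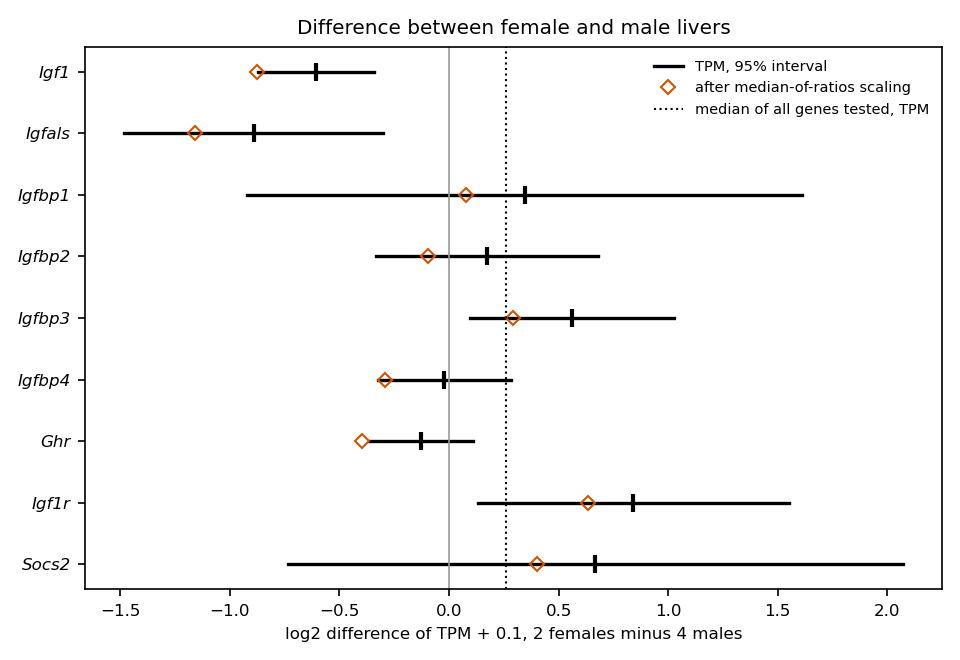
Log2 difference of TPM + 0.1 (x axis, mean of 2 females minus mean of 4 males, with genotype in the model) for the 9 members. Black ticks and lines are the limma estimate and 95% confidence interval, orange diamonds the estimate after median-of-ratios scaling, and the dotted line the median of all genes tested, 0.26. The intervals of Igf1 and Igfals lie wholly below 0, and those of Igfbp3 and Igf1r wholly above.

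Kupffer cell markers differed between the sexes as well. All 12 Kupffer cell and macrophage markers tested were higher in females, 12 of 12 at an unadjusted p under 0.05 and 11 of 12 at an adjusted p under 0.05, with a median log2 difference of 1.45. Their sums were 998 to 1042 TPM in the 2 females and 302 to 438 TPM in the 4 males. Sinusoidal endothelial markers summed to 267 to 287 TPM in females and 133 to 222 TPM in males, and stellate cell markers to 372 to 393 and 155 to 304 TPM. At an adjusted p under 0.05 there were 1 of 12 endothelial and 0 of 12 stellate markers. Among all genes 28.7% had an unadjusted and 7.18% an adjusted p under 0.05, and the sexes did not overlap in 41.6%. After median-of-ratios scaling the Kupffer median was 1.19, with 12 of 12 at an unadjusted p under 0.05. Endothelial markers at that threshold went from 5 to 3 of 12 and stellate markers from 4 to 0 of 12. None of these markers was at 0 in every mouse. Hepatocyte markers summed to 98823 to 108943 TPM in females and 72728 to 99718 TPM in males, and cholangiocyte markers to 41.1 to 46.7 and 19.5 to 67.0 TPM, so that both overlapped. The part of this cell makeup in the sex differences of Igf1, Igfals, Igfbp3 and Igf1r was not tested.

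Growth hormone pulses are read in liver through sex-biased genes, and these were measured beside the members. Of 19 male-biased genes tested, 19 were lower in females, 17 of them at an unadjusted p under 0.05 and 10 at an adjusted p under 0.01. Of 21 female-biased genes, 21 were higher in females, 17 at an unadjusted p under 0.05 and 5 at an adjusted p under 0.01. Among all genes the shares at these thresholds were 28.7% and 0.514%. The lists were written from known sex bias, so that their direction between sexes is a check of the mice rather than a result.

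Between genotypes, 16 of the 19 male-biased genes were higher and 3 lower in Alb-Cre+ livers, with a median log2 difference of 0.39 against -0.00 over all genes. The pairs differed: 9 of 19 were higher in pair 1, 14 in the female pair and 17 in pair 3, and Alb-Cre+ replicate 3 had the highest summed level of the list (49959 TPM, against 26125 to 37631 TPM in the other males). Of the 19, 0 passed an unadjusted p of 0.05 in either direction. With the replicate block 4 passed upward and 1 downward. Over all genes, 1.76% passed without and 4.69% with the block, the latter 323 upward and 343 downward of 14189. Those upward were Mup1, a major urinary protein (1.66 ± 2.23, block p 0.00990 in limma), Cyp2d9, a cytochrome P450 (0.81 ± 1.16, block p 0.0124), Susd4, a complement regulator (1.05 ± 0.78, block p 0.00189), and Cyp4a12a, another cytochrome P450 (1.04 ± 2.67), picked once its values were known. In the other direction Serpina1e, an antitrypsin paralog whose reads may be shared with near-identical copies, differed by -0.80 ± 2.18 (block p 0.00108). Mup1, Cyp2d9 and Cyp4a12a belong to families of close copies too. The errors after ± in this paragraph are standard errors of the fit without the block. With it they were 0.43 for Mup1, 0.22 for Cyp2d9, 0.19 for Susd4, 0.31 for Cyp4a12a and 0.13 for Serpina1e. Of the 21 female-biased genes 8 were higher and 13 lower, with a median of -0.19, and 0 upward and 1 downward passed unadjusted (Ntrk2, a neurotrophin receptor, at -1.07 ± 0.34). The block gave 1 upward, Acot3, an acyl-CoA thioesterase (1.20 ± 0.79), and 3 downward, which were Ntrk2, A1bg (-1.04 ± 1.11) and Cyp3a41a, a cytochrome P450 (-1.10 ± 2.73). Ntrk2 and A1bg were named after their values were seen. Adjusted p with the block were 0.400 or more for these 9 genes. Some were low: Ntrk2 measured 0.0756 to 0.432 TPM and A1bg 0 to 2.05 TPM over the 6 mice. Cyp3a41a was at 0.0525 to 0.167 TPM in the males, and Cyp4a12a at 0.0731 and 0.577 TPM in the females. The lowest value of each lay below the 0.1 TPM added before taking logs.

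The rest of the growth hormone and IGF pathway was taken from a list that does not hold the members. Of 37 further genes, from ligand and receptors to JAK2, the STAT factors, phosphatases and the insulin receptor substrates, 33 were tested. In Alb-Cre+ livers 14 were higher and 19 lower, with 0 at an unadjusted p under 0.05 in either direction and a median log2 difference of -0.02. With the block there was 1 in each direction. Over all genes, 1.76% passed without and 4.69% with the block. Cish, a STAT5 target of the same family as Socs2, measured 6.20, 3.27 and 2.46 TPM in Alb-Cre+ and 2.40, 2.52 and 0.773 TPM in control livers. It was higher in the Alb-Cre+ mouse of each pair, whereas Socs2 was so in 2 of 3 pairs. The log2 difference of Cish was 1.08 ± 0.52 without and ± 0.28 with the block (block p 0.00981, adjusted p 0.767 in limma). Prlr, the prolactin receptor and a relative of Ghr, differed by -0.25 ± 0.49 without and ± 0.09 with the block (block p 0.0399, adjusted p 0.999). Between the sexes 29 of the 33 were higher and 4 lower in females, 14 upward and 0 downward at an unadjusted p under 0.05, with a median of 0.36 beside the 0.26 of all genes. The share of all genes at that threshold was 28.7%. After median-of-ratios scaling 23 were higher and 10 lower, with 8 upward and 2 downward at an unadjusted p under 0.05.

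Genes that insulin and fasting control were listed beside Igfbp1. Of 17 fasting-responsive genes 7 were higher and 10 lower in Alb-Cre+ livers, and 1 passed unadjusted, Cpt1a, the carnitine palmitoyltransferase of fatty acid oxidation (-0.63 ± 0.20, limma p 0.0139). With the block 2 passed upward and 3 downward, among them Fgf21, a fasting hormone, at -2.05 ± 0.88, Klf15, a transcription factor, at -0.67 ± 0.31, Angptl4, an inhibitor of lipoprotein lipase, at 0.50 ± 0.22, and Txnip, a thioredoxin inhibitor, at 0.81 ± 0.39. Of 12 insulin-induced genes 9 were higher and 3 lower, and 3 passed unadjusted, all upward: the lipogenic genes Thrsp (1.88 ± 0.40) and Fasn (1.34 ± 0.33) and the pyruvate kinase gene Pklr (1.01 ± 0.25). Scd1, the stearoyl-CoA desaturase, differed the other way, by -1.91 ± 0.81, and with the block it was the 1 downward gene against 4 upward, the fourth being Gpam, an acyltransferase of triglyceride synthesis (0.24 ± 0.27, named after its values were seen). The adjusted p of these genes were 1.00 without the block and 0.0580 or more with it. Over all genes, 1.76% passed unadjusted without and 4.69% with the block. In the 4 males alone Thrsp had an adjusted limma p of 0.0338 (log2 difference 2.50 ± 0.12), the only gene under 0.05 in that fit. The paper's own count test reported several genes of fatty acid biosynthesis as significantly lower in Alb-Cre+ livers, the direction of Scd1 here and not that of Thrsp and Fasn.

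Markers of cell types were counted between genotypes too. Unadjusted p under 0.05 were found for 1 of 12 hepatocyte markers, Apoa1 (-0.91 ± 0.24), and for 0 of 12 Kupffer cell, 0 of 12 endothelial, 0 of 12 stellate and 0 of 7 cholangiocyte markers. With the block Ttr (-0.37 ± 0.18) was added among hepatocyte and Marco (0.64 ± 0.59) among Kupffer cell markers. Marco went against most of its list, since 2 Kupffer cell markers were higher and 10 lower in Alb-Cre+ livers. Hepatocyte markers were 4 higher and 8 lower, endothelial 5 and 7, stellate 7 and 5, and cholangiocyte 2 and 5. Over all genes, 1.76% passed without and 4.69% with the block.

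The genes whose profile over the 6 mice was most like that of Igf1, among 10634 others averaging 1 TPM or more, were Emc9, Fdxr and Ccpg1os. The mean absolute difference of their centred log2 values from those of Igf1 was 0.029, 0.029 and 0.039. Emc9 measured 36.6, 23.1 and 32.4 TPM in Alb-Cre+ and 32.9, 20.9 and 35.4 TPM in control livers, lowest in the females as Igf1 was. Among those near to Igfbp1 were Apoc2 at 0.20 and Prim1 at 0.24. Apoc2, an apolipoprotein that activates lipoprotein lipase, measured 596, 473 and 221 TPM in Alb-Cre+ and 992, 758 and 699 TPM in control livers, with Alb-Cre+ replicate 3 lowest as in Igfbp1. Emc9 and Apoc2 were chosen for their likeness, so sharing the low mice with Igf1 or Igfbp1 follows from the choice. Among the members Ghr came closest to Igf1, at rank 862 of 10634, and Igfbp3 closest to Igfbp1, at rank 93.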

How the data were processed

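The authors deposited TPM per transcript and mouse in a table named as Salmon output, while their methods describe alignment to GRCm38 with STAR and quantification with RSEM. Their table of a DESeq2 comparison (mean counts, log2 fold changes, standard errors and p-values) was not used. TPM were summed by gene symbol. The 163 of 116748 transcripts without a symbol, 0.0515% to 0.0887% of TPM per mouse, were left out. TPM keep no read numbers, so a count test was not possible and depth is unknown.

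Genes averaging 0.1 TPM or more were tested with limma (version 3.58.1, R 4.3.3) on log2(TPM + 0.1), with trend and with Benjamini-Hochberg adjustment over all genes (threshold 0.01), after the procedure had been tested on simulated data. Fold changes on this scale understate those of low genes. Genotype was fitted alone and, as an alternative, with replicate number as a block. For genes named from the lists, the error after ± is that of the fit without the block unless the text says otherwise. Sex was fitted with genotype. Deviations from the group means of same-numbered mice correlated at 0.49, 0.69 and 0.452 over 10635 genes (other pairs of males 0.111 and 0.243). Same-numbered males were thus more alike than other pairs of males. The labels do not say what the numbers stand for, so a pairing of the mice is not established. The second pair is also the pair of females, and the labels do not state litters. Exact permutation tests were two-sided over the 6 mice, which were separate animals. Transcript classes follow GENCODE M21 (GRCm38), to which 115637 transcripts matched by identifier without version.

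The members and gene lists were chosen with earlier results of these data known. Genes named beside the members were those of each list with an unadjusted p under 0.05 with or without the block and averaging 1 TPM or more, at most 3 per direction, and the 3 profiles nearest to Igf1 and Igfbp1. Exceptions are marked in the text. 1 of the profiles near to Igfbp1 is not reported here. The lists cover the rest of the pathway, male-biased, female-biased, fasting-responsive and insulin-induced genes, and markers of hepatocytes, Kupffer, endothelial and stellate cells and cholangiocytes. Alternatives were the pseudocount, the filter, median-of-ratios scaling, sex as a covariate, limma without trend, males alone, protein-coding transcripts alone (added after seeing the data) and leaving out each mouse.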

Additional observations from a re-analysis of the deposited data

Results flagged for a closer look

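Igf1r was higher in the Alb-Cre+ mouse of the female pair but not in the pairs of males. The Alb-Cre+ female was above the control female by 0.46 on the log2 scale. The pairs of males differed by -0.0078 and -0.20, with a mean of -0.10, so that the first of them hardly differed. A test of this dependence on sex in limma gave an adjusted p of 0.793, and it rests on 1 female per genotype and on levels of 0.181 to 0.528 TPM.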

How the results depend on the processing

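With the replicate block 2 members instead of 0 had an unadjusted p under 0.05 (Igfbp1 and Igfbp3), also 2 with the block under median-of-ratios scaling or a pseudocount of 1 TPM. Without the block there was 1 under median-of-ratios scaling or with sex as a covariate (Igfbp3), and 0 to 1 when a mouse was left out (Igfbp1 without Alb-Cre+ replicate 1). The block changed no adjusted call. Over all genes, leaving out a mouse gave 0 to 1 genes at an adjusted p under 0.01, the 1 being Gm10240, seen without Alb-Cre+ replicate 1 and named after its values were known. Genes at an unadjusted p under 0.05 numbered 250, against 666 with the block, 780 and 651 with the block under median-of-ratios scaling and a pseudocount of 1 TPM, 442 with no filter, 531 with sex as a covariate, 522 in 4 males alone and 183 to 506 when a mouse was left out, the 506 without Alb-Cre+ replicate 2. Genes for sex rose from 73 to 1019 at an adjusted p of 0.05. List genes at an unadjusted p under 0.05 numbered 6, against 24 with the block and 19 in males alone. Of 152 alternative values of the members' genotype differences 14 changed sign, none of them past a threshold: in males alone Igf1 was at -0.043, Igfbp2 at 0.078, Igfbp4 at -0.051 and Igf1r at -0.10. When a mouse was left out, Igf1 ranged from -0.21 to 0.19 (also -0.10 and -0.03 below 0), Igfals from -0.056 to 0.71, Igfbp2 from -0.35 to -0.0040, Igfbp4 from -0.0091 to 0.10, Igf1r from -0.29 to 0.29 (also -0.04), Socs2 from -0.43 to 0.63 (also -0.03 and -0.05), the Igfbp1 share difference from -9.56 to -2.41 and the truncated Ghr share difference from -0.22 to 4.33 percentage points. Igfbp2 between sexes turned to -0.10 under median-of-ratios scaling. A fit with both sex and the replicate block was not run, since the block takes up sex.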
